A study of Mus musculus with 2 samples.

Results

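The Rab GTPases of mouse CD4+ T cells are described here: all gene symbols in the deposited expression tables made of Rab, a number and at most a letter and a further digit. The rule found 59 genes among the 24346 symbols of each table, and it used no measured value. RNA was sequenced from CD4+ T cells sorted from spleen at day 14, in 1 library per group. Both groups are labelled HFD-MI; the animals of the first received probucol and those of the other were left untreated. Probucol is a cholesterol-lowering drug with antioxidant activity. The labels give neither genotype, strain nor age, nor how many animals stand behind a library, and the unexplained word HypoE stands in both column headers. With 1 library a group there was no replicate spread and no test, so every difference below is between these 2 libraries only.

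Rab proteins are small GTPases that mark membranes and steer vesicles between them. Bound to GTP they sit on a membrane and recruit effectors (tethers, motors and sorting proteins); exchange factors load the GTP, GTPase-activating proteins end the signal, and a dissociation inhibitor carries the lipid-anchored protein back through the cytosol. T cells use them to recycle the T cell receptor to the contact with an antigen-presenting cell, to move integrins and to release cytokines and granules.

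The unit is FPKM, the number of fragments per kilobase of a transcript and per library size, so levels of different genes can be compared per length. Expressed here means an average of at least 1 FPKM over both libraries. Steps in the low values put 1 fragment at 0.101 FPKM for 1 kb of transcript with probucol and at 0.1 untreated, which allows the number of fragments behind each value to be estimated and a 95% exact (Clopper-Pearson) interval of the ratio to be given. These intervals cover counting error only, include PCR copies and are less sure where a gene has several transcripts. The estimated total was 9.84e+06 fragments with probucol and 9.86e+06 untreated. T cell genes were abundant, with a summed level over 7 genes of the CD4 T cell list of 4187 FPKM with probucol and 4227 FPKM untreated, 2 of them higher and 5 lower. Cd4 itself was at 334 and 284 FPKM, and the rest are not particular to CD4 T cells. Trac and Trbc2, also on that list, were not among the symbols. Of the CD8 T cell genes, Cd8a stood at 0.139 and 0.276 FPKM and Cd8b1 at 15.9 and 19.6 FPKM.

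Of the 59 Rab genes, 39 were expressed (66.1%), against 43.8% of all symbols, and all 39 were at 1 FPKM or more in each library on its own. The other 20 had at most 0.585 FPKM on average. The filter fell in a wide gap: Rab23, at a mean of 2.31 FPKM, and Rab31, at 2.40, lay just inside it, and Rab38, at 0.585, and Rab39b, at 0.532, just outside. The family summed to 1702 FPKM with probucol and 1763 FPKM untreated, or 0.228% and 0.232% of all FPKM in the library. The expressed members had a median level of 29.1 FPKM with probucol and 30.3 FPKM untreated, where all expressed genes had medians of 14.9 and 14.4 FPKM.

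Promoter sequence is shown for 5 members, because the split between expressed and silent members was the widest contrast within the family. RefSeq promoter windows (GRCm38.p6, the mm10 assembly; 250 bases before to 50 bases after a start) were found for 47 of the 59 genes. Below are the 150 bases before the start of each, 5′ to 3′ on the gene's own strand, with CpG dinucleotides in capitals; none of these stretches touches an annotated exon in GENCODE M21. Rab8a (chr8:72161050-72161199, plus strand) had the highest level of the family.

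Rab8a: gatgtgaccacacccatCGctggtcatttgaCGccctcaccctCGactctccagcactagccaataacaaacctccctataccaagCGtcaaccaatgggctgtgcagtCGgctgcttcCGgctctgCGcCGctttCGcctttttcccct

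Rab10 (chr12:3309970-3310119, minus strand), at a mean of 85.4 FPKM, had the most CpGs of the 47 windows together with Rab35, 43 in 300 bases.

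Rab10: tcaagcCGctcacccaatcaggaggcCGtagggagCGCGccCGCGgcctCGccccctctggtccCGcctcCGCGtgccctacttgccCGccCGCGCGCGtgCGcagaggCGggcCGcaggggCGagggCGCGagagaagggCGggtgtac

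Rab17 (chr1:90967668-90967817, minus strand) was listed at 0 in both libraries and had the fewest CpGs of the 47 windows. GENCODE M21 puts the 5′ end of Rab17 further upstream, at 90969661, so this RefSeq start lies inside the annotated gene. Rab9 (chrX:166479868-166480017, minus strand) and Rab39 (chr9:53706233-53706382, minus strand) run against the pattern, the first expressed from a CpG-poor start and the other near 0 with a CpG-rich start.

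Rab17: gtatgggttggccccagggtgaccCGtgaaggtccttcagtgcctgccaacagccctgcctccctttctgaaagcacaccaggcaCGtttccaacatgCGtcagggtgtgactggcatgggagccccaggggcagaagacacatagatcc

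Rab9: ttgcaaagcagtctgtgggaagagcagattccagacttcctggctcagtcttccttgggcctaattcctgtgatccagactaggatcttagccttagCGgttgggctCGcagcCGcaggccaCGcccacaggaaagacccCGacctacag

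Rab39: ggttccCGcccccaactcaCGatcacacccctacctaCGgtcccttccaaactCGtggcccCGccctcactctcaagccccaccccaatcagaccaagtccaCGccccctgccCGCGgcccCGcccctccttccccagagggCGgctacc

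The printed stretches hold 9 CpGs in Rab8a, 22 in Rab10, 3 in Rab17, 5 in Rab9 and 10 in Rab39. Over the whole 300-base windows, the 34 expressed members had a median of 25 CpGs and the 13 others a median of 10. An observed-to-expected CpG ratio of 0.6 or more was found in 29 of 34 expressed members (85.3%) and in 5 of 13 others (38.5%). The same direction held over all genes with a window: 73.6% of 8132 expressed symbols and 24.2% of 9059 others reached that ratio, so the split was not particular to Rab genes. Among the expressed members, Rab6b, with 42 CpGs, had a mean of 3.50 FPKM, and Rab19, with 9, had 49.9 FPKM.

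**Figure D1:**
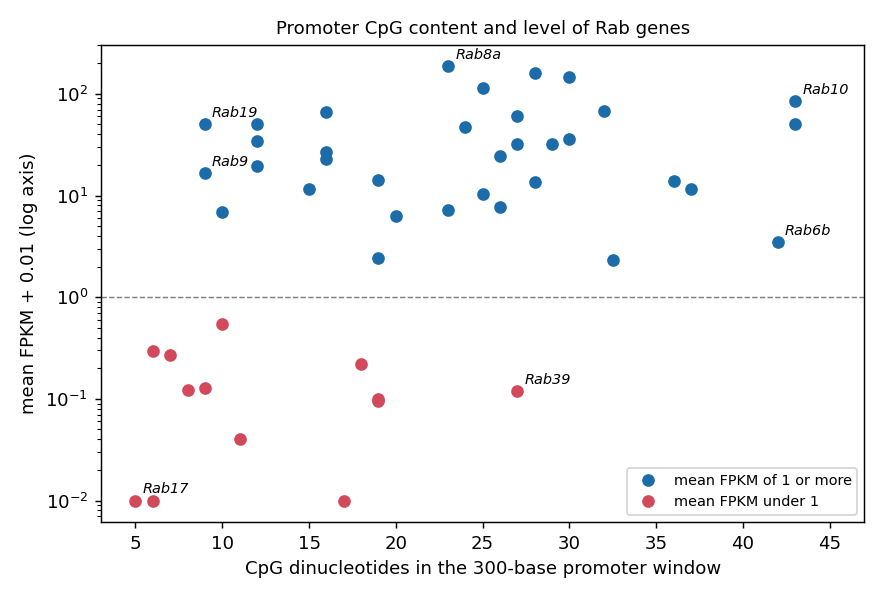
Number of CpG dinucleotides in the 300-base promoter window (horizontal axis) against mean FPKM of both libraries plus 0.01 (vertical log axis) for the 47 Rab genes with a RefSeq window. Blue points are expressed genes and red points are genes with a mean FPKM under 1; of windows with more than 27 CpGs, all belong to expressed genes, while Rab9 and Rab19 are expressed with 9.

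Between the libraries the expressed Rab genes stayed close. On log2 of FPKM + 1, a scale that understates differences of low genes, 0 of 39 members were at least 2-fold higher with probucol and 0 were at least 2-fold lower. Of all 10663 expressed genes, 1.62% were at least 2-fold higher and 1.98% at least 2-fold lower, so among 39 genes a count of 0 lies near the background. At a limit of 1.5-fold, chosen after the values were seen, 1 member (Rab6b) was higher and 0 were lower, against 5.99% and 5.53% of all expressed genes. Among the 32 members with a mean of 10 FPKM or more, 0 passed 1.5-fold in either direction, where 3.38% of genes at that level were higher and 2.59% lower. The median log2 ratio of the members was -0.03 (interquartile range -0.10 to 0.12), and that of all expressed genes was 0.02 (-0.18 to 0.23). By direction alone, 17 members were higher with probucol and 22 lower, where 52.7% of all expressed genes were higher. These directions include very small differences: Rab10 and Rab27a changed side when both libraries were scaled to the same sum, and Rab40c when ratios were centred on the median gene.

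**Figure D2:**
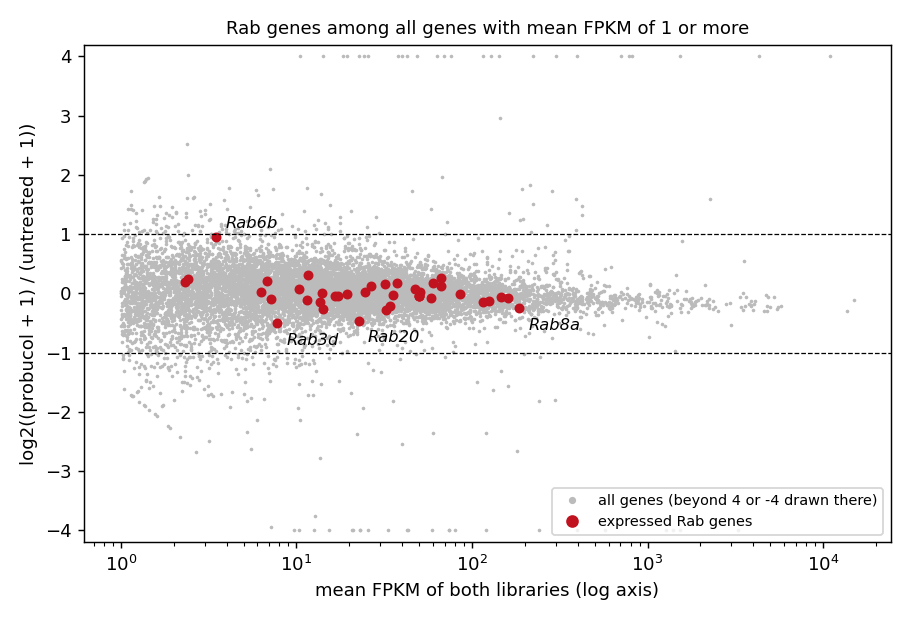
Mean FPKM of both libraries (horizontal log axis) against log2((probucol + 1) / (untreated + 1)) for all 10663 expressed genes (grey) and the 39 expressed Rab genes (red); dashed lines mark 2-fold, and genes beyond 4 or -4 are drawn there. All red points lie between the dashed lines, with Rab6b, at 0.95, nearest to them.

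Counting intervals show which ratios the depth could tell from 1. The interval left out 1 for 12 of the 39 members, 5 higher with probucol (Rab6b, Rab12, Rab24, Rab14 and Rab6a) and 7 lower (Rab3d, Rab20, Rab43, Rab22a, Rab8a, Rab4b and Rab2a). Over all expressed genes with a known length, 28.3% were higher and 23.4% lower by this measure, 51.7% in all, a share above that of the Rab genes. With the longest annotated transcript in place of the median length, a choice made after the values were seen, the interval left out 1 for 15 members, Rab7, Rab11a and Rab18 being added. The share of all expressed genes was not computed with that length, so the 15 cannot be set beside the 51.7%.

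**Figure D3:**
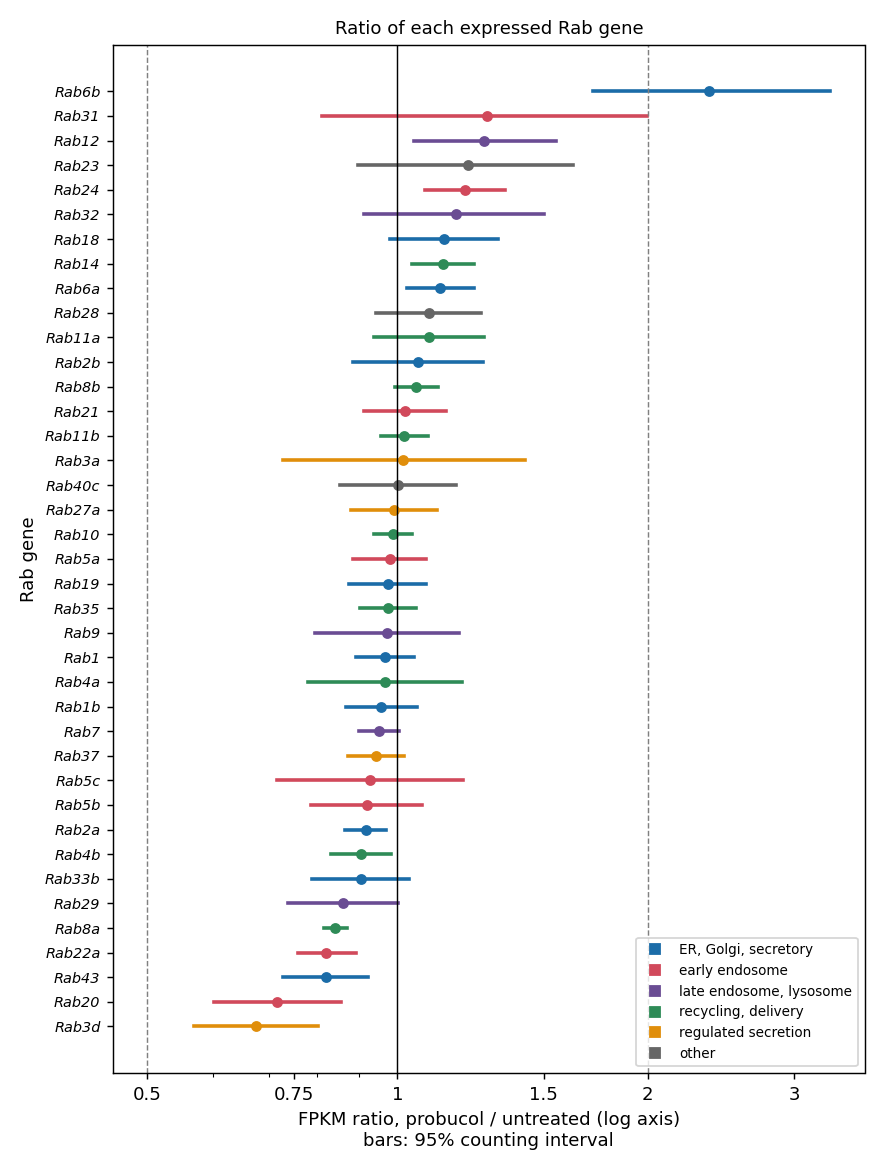
FPKM ratio of probucol over untreated (horizontal log axis) for the 39 expressed Rab genes, ordered by ratio and coloured by role; bars are 95% counting intervals, the solid line marks 1 and the dashed lines mark 2-fold. Rab6b stands apart at 2.37, and the other 38 ratios lie from 0.676 (Rab3d) to 1.28 (Rab31).

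Among the Rabs of the endoplasmic reticulum and Golgi, 10 of 17 were expressed, 4 higher with probucol and 6 lower, with a sum of 478 FPKM with probucol and 493 FPKM untreated. Rab1 (the gene now called Rab1a) and Rab1b direct vesicles from the endoplasmic reticulum to the Golgi. Rab1b was at 144 FPKM with probucol and 150.1 untreated, and Rab1 at 49.3 and 51.0 FPKM. Rab2a, which also acts between these compartments, was at 120.3 and 131 FPKM, 1.09-fold lower (1.03 to 1.16), while its paralog Rab2b was at 10.6 and 9.99 FPKM. Rab18, found on the endoplasmic reticulum and on lipid droplets, was at 39.8 and 35.0 FPKM, and Rab19 at 49.3 and 50.6 FPKM. Rab43, a Golgi Rab, was at 12.7 and 15.5 FPKM, 1.22-fold lower (1.08 to 1.37); its exons share 4164 bases with Gm45140, an annotated coding gene on the same strand. Rab33b, which takes part in autophagy, was at 12.9 and 14.3 FPKM.

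The Rab6 pair, which runs retrograde transport from the Golgi, held the largest ratio of the 39 expressed members. Rab6b (chromosome 9, mm10), best known from neurons, was at 4.92 FPKM with probucol, on about 130 fragments, and at 2.07 FPKM untreated, on about 55. That made it 2.37-fold higher (1.72 to 3.32). On log2 of FPKM + 1 this was 0.95, short of 2-fold. The ubiquitous paralog Rab6a was at 34.1 and 30.3 FPKM, 1.13-fold higher (1.03 to 1.24). Both thus pointed the same way by different amounts, and the share of Rab6b in their sum was 12.6% with probucol and 6.41% untreated. Exons of Rab6a overlap those of Mrpl48 on the other strand by 403 bases, and Mrpl48 was at 42.2 and 56.1 FPKM.

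Of the early endosomal Rabs 8 of 9 were expressed, 3 higher and 5 lower, and their sums were nearly equal, at 202 FPKM with probucol and 204 FPKM untreated. These sums include Rab24, the highest of the group, which was higher with probucol and whose exons overlap another gene, as given below. The 3 Rab5 paralogs, which drive fusion of early endosomes, kept their order: Rab5a was at 35.2 and 35.9 FPKM, Rab5b at 11.0 and 12.0, and Rab5c at 6.91 and 7.46. Rab21, a regulator of integrin traffic, was at 24.8 and 24.3 FPKM. Rab20 (chromosome 8), linked to phagosome maturation in macrophages, was at 18.9 FPKM with probucol and 26.4 untreated, 1.40-fold lower (1.17 to 1.66). E230013L22Rik, at 1.40 and 3.03 FPKM, overlaps exons of Rab20 by 356 bases on the other strand. Rab22a was 1.22-fold lower (1.12 to 1.32), at 29.1 and 35.4 FPKM, and its close relative Rab31 was at 2.70 and 2.11 FPKM on about 48 and 38 fragments. Mir6340, annotated as a miRNA and listed at 441 FPKM with probucol and 132 untreated, overlaps exons of Rab22a by 119 bases on the other strand. FPKM is unsure for so short a gene, so these values should not be compared with those of longer genes. Rab24, tied to autophagy, stood at 73.3 and 60.8 FPKM, or 1.21-fold higher with probucol (1.08 to 1.35). Its exons overlap those of Prelid1 on the other strand by 775 bases, Prelid1 was at 395 and 418 FPKM, and no source states that strand was used in counting, so fragments of these genes cannot be told apart there.

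The late endosomal and lysosomal Rabs had 5 of 8 members expressed, 2 higher and 3 lower. Rab7, the Rab of late endosomes and their fusion with lysosomes, led them at 155 FPKM with probucol and 163 untreated, a ratio of 0.95 (0.898 to 1.005). Rab29, which T cells use in recycling the T cell receptor, stood at 31.5 and 36.7 FPKM, with a ratio of 0.86 (0.738 to 1.003). Rab9, which returns mannose 6-phosphate receptors from late endosomes to the Golgi, was at 16.4 and 16.9 FPKM. Rab12, which acts in degradation of recycling receptors, was at 13.0 and 10.2 FPKM, 1.27-fold higher (1.05 to 1.55). Rab32, a Rab of lysosome-related organelles, was at 7.39 and 6.27 FPKM.

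Recycling and delivery to the plasma membrane took the largest part of the family, 38.97% of its FPKM with probucol and 39.34% untreated, with 9 of 12 members expressed, 4 higher and 5 lower. Rab8a (chromosome 8), which brings vesicles to the cell surface, was the highest Rab gene in both libraries, at 170.4 and 202 FPKM, or 1.19-fold lower with probucol (1.15 to 1.22). Its paralog Rab8b stood at 48.4 and 46.0 FPKM, with a ratio of 1.05 (0.992 to 1.12). Rab4b, of the fast recycling route, was at 109 and 121 FPKM, 1.11-fold lower (1.02 to 1.20), and Rab4a at 16.9 and 17.5 FPKM. Exons of Rab4b share 1016 bases with Gm21983, an annotated coding gene on the same strand. Rab11a and Rab11b, of the slow route through the recycling endosome, were at 69.5 and 63.7 FPKM and at 50.7 and 49.8 FPKM. Rab35, which also serves recycling of the T cell receptor, was at 49.4 and 50.7 FPKM. Rab10 was at 84.9 and 86.0 FPKM, and Rab14 at 63.6 and 56.1 FPKM, 1.13-fold higher (1.04 to 1.24). The narrow interval of Rab8a rests on about 7358 and 8780 fragments.

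**Figure D4:**
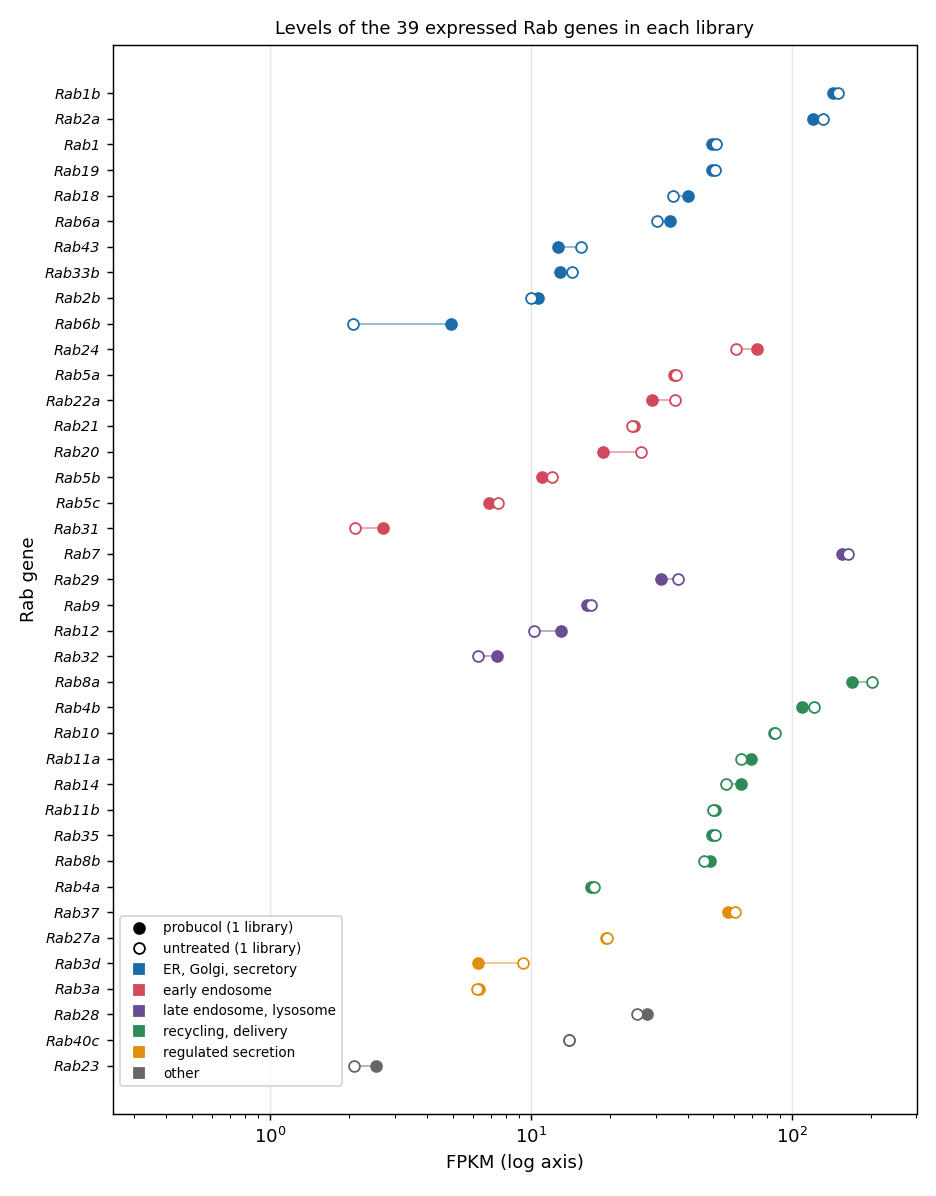
FPKM (horizontal log axis) of the 39 expressed Rab genes with probucol (filled circles) and untreated (open circles), 1 library each, grouped and coloured by role. Levels run from 2.07 FPKM for Rab6b to 202 FPKM for Rab8a, both untreated, and for most genes the circles nearly coincide.

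Regulated secretion had 4 of 9 members expressed, 1 higher and 3 lower. Rab27a, which docks cytotoxic granules at the membrane and is mutated in Griscelli syndrome, was at 19.3 FPKM with probucol and 19.5 untreated, a ratio of 0.989 (0.879 to 1.12). Its partner Unc13d, the granule priming factor Munc13-4, was at 42.0 and 46.7 FPKM, 1.11-fold lower (1.04 to 1.19). Rab37 was the highest of the group, at 57.0 and 60.4 FPKM. The synaptic and secretory vesicle Rabs were low: Rab3a was at 6.30 and 6.20 FPKM, and Rab3d (chromosome 9) at 6.27 and 9.28 FPKM, 1.48-fold lower (1.25 to 1.76). Rab3d therefore stood level with Rab3a in the probucol library and above it in the untreated one. Outside these groups Rab28 and Rab23, both tied to primary cilia, were at 27.9 and 25.5 FPKM and at 2.53 and 2.09 FPKM, and Rab40c, a Rab with a SOCS box that binds a ubiquitin ligase, was at 13.9 FPKM in each.

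Within most subfamilies 1 paralog held most of the FPKM, and its share was close in both libraries. Rab1b made up 74.5% of the Rab1 sum with probucol and 74.6% untreated, Rab2a 91.9% and 92.9% of the Rab2 sum, and Rab4b 86.6% and 87.4% of the Rab4 sum. In the Rab5 group, Rab5a held 66.2% and 64.9%. Rab8a held 77.9% of its pair with probucol and 81.5% untreated, and Rab11a 57.7% and 56.1% of its group. Rab3 shares moved furthest among the expressed groups, Rab3d from 59.0% untreated to 49.8% with probucol. These shares are descriptions of FPKM, with no error beyond the counting intervals above.

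**Figure D5:**
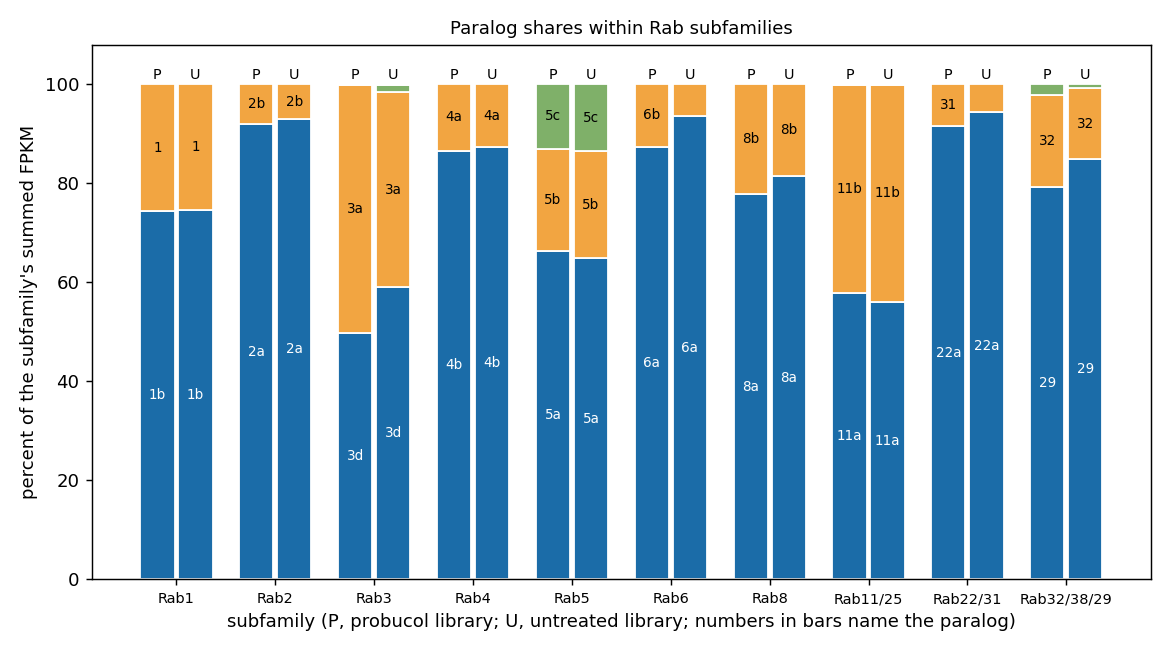
Share of each paralog in the summed FPKM of its Rab subfamily (vertical axis, percent) in the probucol library (P) and the untreated library (U); numbers inside the bars name the paralog. The dominant paralog is the same in both libraries for every subfamily drawn except Rab3, where Rab3a and Rab3d are level with probucol.

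The 20 members under the filter rested on at most 26 fragments in a library. Rab15, Rab17 and Rab9b were listed at 0 in both; 3 fragments, the limit that a count of 0 allows, would be 0.497, 0.203 and 0.0800 FPKM with probucol. Rab17 and Rab25, the epithelial Rabs, were at or near 0, Rab25 with about 1 fragment in each library. A further 6 were listed at 0 with probucol only (Rab13, Rab34, Rab36, Rab3b, Rab42 and Rab44) and 2 untreated only (Rab27b and Rab39), where 13.5% and 2.88% of all symbols were. The largest of these, Rab36, had 0.786 FPKM on about 22 fragments in the untreated library. Rab39b was at 0.251 and 0.813 FPKM, on about 8 and 26 fragments. Rab38, a melanosome Rab, was at 0.879 and 0.292 FPKM on about 8 and 3 fragments. Rab26, Rab30, Rab33a, Rab3c, Rab40b and Rab7b stood at 0.417 FPKM or less in both libraries. The counting interval left out 1 for Rab36, Rab39b and Rab44, lower with probucol, and for Rab27b and Rab39, higher. Rab27b and Rab39 each rested on about 6 fragments against 0. The share of all genes under the filter with such an interval was not computed, so these calls have no background. Differences among these members rest on few fragments, and the untreated library listed more symbols above 0 in all, 16876 against 14289.

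Genes that act on Rab proteins were also within 2-fold on log2 of FPKM + 1. Of 109 expressed genes in 4 lists, 0 were at least 2-fold higher or lower. Over all 10663 expressed genes, 1.62% were at least 2-fold higher and 1.98% at least 2-fold lower on that scale. The plain FPKM ratios of Sbf2 (3.16) and Tbc1d8b (4.25) did pass 2-fold. In the prenylation and recycling list, 3 of 7 expressed genes were higher and 4 lower, with a median log2 ratio of -0.10. Gdi2, a dissociation inhibitor, was at 190.0 FPKM with probucol and 181 untreated. Rabif, a chaperone for nucleotide-free Rabs, was 1.41-fold lower (1.31 to 1.53), and Rabggtb, the catalytic subunit of the enzyme that attaches the lipid anchor, 1.35-fold lower (1.13 to 1.63). Rabac1, a prenylated Rab acceptor, was at 409 and 462 FPKM, and Chm, the escort protein, at 6.18 and 6.68 FPKM.

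Of 40 expressed exchange factors, 21 were higher and 19 lower, with a median of 0.07. Sbf2 was the furthest apart, at 1.90 and 0.603 FPKM, 3.16-fold higher (2.14 to 4.66), or 0.86 on log2 of FPKM + 1. Trappc11, Dennd1b and Dennd6b were 1.38-fold (1.22 to 1.57), 1.39-fold (1.22 to 1.59) and 1.37-fold higher (1.16 to 1.62), and Dennd5a was 1.49-fold lower (1.17 to 1.91). Rabgef1, which activates Rab5, was at 17.3 and 15.4 FPKM. Of 29 expressed GTPase activators, 14 were higher and 15 lower, with a median of -0.05. Tbc1d10c, also called carabin and abundant in lymphocytes, led them with 459 FPKM under probucol against 457 untreated, a ratio of 1.004 (0.97 to 1.04). Tbc1d8b was 4.25-fold higher (2.51 to 7.30), at 1.64 and 0.385 FPKM, or 0.93 on log2 of FPKM + 1. Rab3gap2, Tbc1d2b and Rabgap1l were 1.52-fold (1.34 to 1.72), 1.38-fold (1.20 to 1.58) and 1.21-fold higher (1.12 to 1.31). Grtp1 was at 1.73 and 0.906 FPKM and Tbc1d7 at 2.76 and 4.35 FPKM, with intervals that held 1.

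Of 33 expressed effectors, 15 were higher and 18 lower, with a median of -0.01. The early endosome partners of Rab5 did not share a direction. Rabep1 and Rbsn were 1.32-fold (1.09 to 1.59) and 1.52-fold higher (1.30 to 1.79), while Rabep2 was 1.44-fold lower (1.25 to 1.65). Uso1, the Rab1 tether at the Golgi, was 1.59-fold higher (1.31 to 1.94), and Rab11fip3, a Rab11 effector, 1.60-fold higher (1.29 to 1.98). Sytl3, a Rab27 effector, was at 3.98 and 6.38 FPKM, 1.60-fold lower (1.13 to 2.34).

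Markers of other cells differed between the libraries, and their part in the values above was not tested. The summed FPKM of the B cell list was 63.6 with probucol and 22.8 untreated, with 6 of 10 genes expressed, all 6 at least 2-fold higher, and Pax5 listed at 0 in both. Erythroid genes summed to 295 and 980 FPKM, all 8 lower. For macrophages the sums were 194 and 184 FPKM (10 of 11 expressed, Marco at 0 with probucol), for neutrophils 1073 and 956 (9 of 9), for natural killer cells 7.78 and 18.0 (5 of 7, Klra8 at 0 in both) and for plasma cells 104 and 88.0 (4 of 5). By direction, 8 expressed macrophage genes were higher with probucol and 2 lower, and 8 neutrophil genes were higher and 1 lower. In the neutrophil list, Elane (12.0 and 2.80 FPKM) and Mpo (10.9 and 4.23 FPKM) were at least 2-fold higher. Natural killer genes were lower in 4 cases, 2 of them at least 2-fold, and higher in 1. Ncr1, outside that count, was at 1.04 and 0.0795 FPKM. Dendritic cell genes summed to 5.76 and 6.53 FPKM (2 of 8; Clec9a, Itgax and Batf3 at 0 untreated), mast cell and basophil genes to 5.54 and 2.91 (1 of 6; Mcpt4 and Cma1 at 0 in both), platelet genes to 5.59 and 2.97 (2 of 5) and CD8 T cell genes to 16.1 and 19.9 (1 of 2). In a sorted bulk sample, fewer cells of a type and less RNA per cell cannot be told apart.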

How the data were processed

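The authors deposited FPKM values, as the column headers say, with a single value for each symbol. The submitters' processing notes list the tools TopHat2 2.1.1, Bowtie2 and Cuffdiff 2.2.1 and the build mm10 without roles or order. For the annotation, filters and any scaling between libraries, details were not given in the sources used here. Log2 ratios were taken on FPKM + 1. Transcript lengths came from GENCODE M21 (GRCm38, the same assembly as mm10), by symbol or RefSeq synonym, for 23965 of 24346 symbols and all 59 Rab genes. Fragments were estimated from steps in the low values of genes with 1 transcript of 800 to 10000 bp, with 210 bp subtracted from each length; 73.4% and 74.5% of these values lay within 0.1 of a whole number, where 20.0% would by chance. Other genes used the median length of their coding transcripts.

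Copies of at least 200 bp and 95% identity were sought with blastn 2.17.0. Rab2a, Rab5b, Rab6a, Rab7, Rab8b, Rab9 and Rab11b have such processed pseudogenes, and Rab33b holds a repeat, so their fragments could have been split. Exon overlaps came from the same annotation.

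All 59 members are accounted for and all expressed members given. Of each list of Rab regulators, the 5 largest ratios and a few known genes are named, except for a gene that is counted in its list but not reported here. Members, roles and lists were chosen with earlier results of these data known. A simulation of the probucol and untreated comparison used 10564 genes, of which 200 were given a 4-fold change. The 2-fold count found 96.5% of these 200 genes and 13 of the rest. The simulated libraries differed by counting error only, apart from the changes put in. The 13 therefore do not measure calls that spread between animals, sorts or preparations would add. Recovery of changes smaller than 4-fold was not tested. With 1 library a group, spread between animals, sorts and library preparations could not be measured. Python 3.11.15, pandas 2.3.3 and scipy 1.17.1 were used. Alternatives were other pseudocounts (0.1 and 5), filters, scaling and centring.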

Additional observations from a re-analysis of the deposited data

How the results depend on the processing

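No paired analysis was possible because each group has 1 library. Of 211 values recomputed under other settings, 206 stayed the same by a limit set from their counting or order-statistic interval, or within 1.5 times for counts. None of the 156 recomputed member ratios shifted, on log2, by more than its counting interval reaches on average to either side. Centring moved all members by the same small amount and scaling by nearly the same. Both shifts were smaller than any of these intervals allows, so those settings could not have passed the limit. With pseudocount 5, the log2 ratio of Rab6b was 0.49 in place of 0.95. That value lies below the lower end of its counting interval, a ratio of 1.72. With pseudocount 0.1, 1 member (Rab6b) was at least 2-fold higher instead of 0, and 2 genes of the regulator lists (Sbf2 and Tbc1d8b) instead of 0. A fold of 1.5 in place of 2, chosen after the values were seen, gave the same counts of 1 and 2. Scaling both libraries to the same sum moved the log2 ratio of the family's summed FPKM from -0.050 to -0.027. The members' median log2 ratio ranged from -0.05 when centred to -0.01 when scaled, and their mean was 0.0028. With a filter of 0.5 FPKM in place of 1, 41 members counted as expressed, and with 5 FPKM 36 did. Without the members that share sequence or exons with coding genes, 25 expressed members had a median of -0.02. Depth limits the 20 low members, and differences between animals, sorts and library preparations are in no interval.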
